A study of Homo sapiens with 30 samples.

Results

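The transcripts of 9 receptors of the tumor necrosis factor (TNF) receptor superfamily, FAS, TNFRSF10A, TNFRSF10B, TNFRSF10D, TNFRSF1A, TNFRSF12A, TNFRSF14, TNFRSF21 and LTBR, were followed across 10 conditions of PANC-1 tumoroids. The genes were taken by name, and they are 9 of the 60483 gene records of each library. All 9 passed the filter on low counts, which kept 18424 genes. RNA was sequenced from 30 cultures, 3 biological replicates per condition, of wild-type PANC-1, an epithelial line derived from a human pancreatic ductal carcinoma. The cells were aggregated in low-serum medium, either alone (DSLB-free tumoroids) or together with droplet-supported lipid bilayers (DSLBs), which are oil droplets coated with a lipid membrane that act as synthetic cells. Plain DSLBs carried no protein. In the other 8 conditions the DSLBs carried recombinant PD-1, the T cell checkpoint receptor that binds PD-L1, either alone or with 1 further T cell protein, namely TIGIT, LAG3, ICOS, CTLA4, CD40L, CD27 or CD2. PD-1 was thus shared by all 8 protein-bearing conditions, and no condition carried a second protein without PD-1 or a protein unrelated to T cells, so an effect of PD-1 and of protein on the droplets as such cannot be told apart. All cultures came from 1 cell line, and the droplets stood in for immune cells, of which none were added.

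TNF receptors are membrane proteins that are drawn together by trimeric ligands of the TNF family. Death receptors carry an intracellular death domain through which they recruit adaptors such as FADD and TRADD and, with them, caspase-8, whereas receptors without a death domain bind TRAF proteins and feed NF-kB and MAP kinase signalling. In carcinoma cells the death receptors are known as the entry to extrinsic apoptosis, by which T cells and natural killer cells carrying FAS ligand or TRAIL can kill, and their transcripts say nothing on their own about how much receptor stood at the cell surface.

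Expected counts, the reads assigned to each gene, summed to 21.9 M to 60.5 M per library (median 40.6 M, M standing for 1000000), and the mitochondrially encoded share lay between 1.71% and 7.0%, with plain DSLB hybrids at 4.90% ± 0.249 (SD, n = 3) and PD-1 hybrids at 3.54% ± 0.764 (SD, n = 3). The epithelial origin of the cultures was visible in every library: KRT7, KRT8, KRT18, KRT19, EPCAM and CDH1 together summed to 4565 to 6613 TPM (transcripts per 1000000). Of 8 immune cell markers, CD3E was listed at 0 in all 30 libraries, and the 8 together summed to 1.25 to 2.74 TPM. Relative to plain DSLBs, KRT8, KRT18 and KRT19 were higher and CDH1 was lower in 8 of 8 comparisons, and of the immune markers CD14, at 0.85 TPM on average, was higher in 8 of 8. EPCAM was lower in 4 of 8 and PTPRC in 2 of 8 (-2.06 with PD-1/CD40L and -2.05 with PD-1/CTLA4). Of the 8 genes that encode the DSLB proteins, 2 passed the filter, of which PDCD1, the gene of PD-1, was higher than with plain DSLBs in PD-1/CD40L (0.90, edgeR adjusted p = 0.0282), and LAG3 passed in 0 of 8. The summed epithelial markers lay at 4565 to 5429 TPM in the 6 control libraries and at 5840 to 6613 TPM in the 24 protein-bearing libraries. That sum thus moved with the receptors that rose, whereas CDH1 and EPCAM went the other way and KRT7 passed in 0 of 8. The part of these markers in the receptor values was not tested. In bulk RNA, fewer cells and less RNA per cell cannot be told apart.

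The receptors differed widely in level. TPM, which corrects for transcript length and so allows genes to be compared, placed TNFRSF1A first with 82.2 ± 7.83 TPM (SD over 30 libraries). TNFRSF1A is the ubiquitous receptor for TNF itself. TNFRSF12A, the receptor for TWEAK, followed with 56.2 ± 5.34 TPM, TNFRSF10B, a TRAIL receptor, with 41.4 ± 4.88 TPM, and TNFRSF21, a death receptor also called DR6, with 29.0 ± 2.91 TPM. TNFRSF14, the receptor HVEM that binds LIGHT and the T cell protein BTLA, reached 11.8 ± 2.25 TPM. The decoy TRAIL receptor TNFRSF10D had 7.05 ± 0.758 TPM and TNFRSF10A, the other death-domain TRAIL receptor, 4.71 ± 0.735 TPM. LTBR, the lymphotoxin beta receptor, and FAS were lowest with 1.70 ± 0.418 and 1.67 ± 0.349 TPM, a difference smaller than their spread. Libraries of TNFRSF1A and TNFRSF12A did not overlap (lowest 67.3, highest 66.1 TPM), whereas TNFRSF12A overlapped TNFRSF10B, whose highest library reached 52.6 TPM while the lowest of TNFRSF12A was 44.8 TPM. FAS and LTBR rested on few reads, with 34 to 164 and 31 to 109 expected counts per library, so their fold changes were the least precise of the 9.

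**Figure D1:**
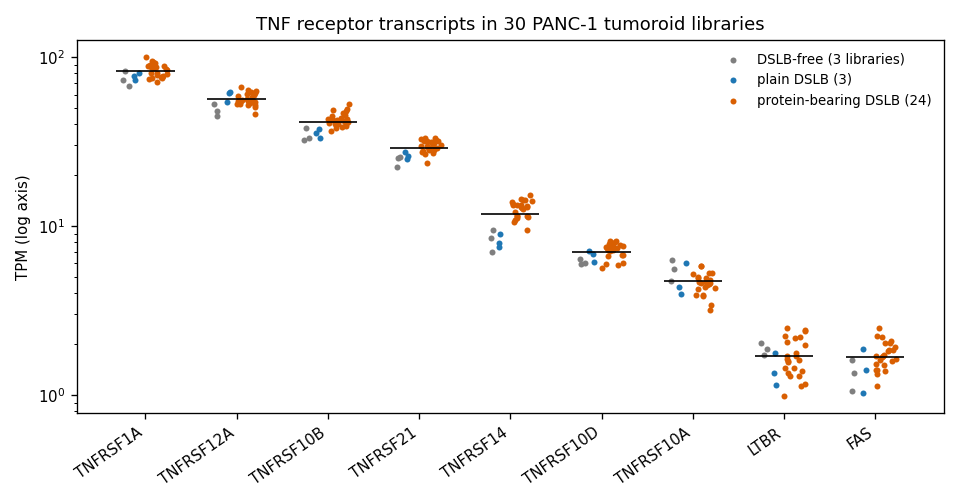
TPM on a log axis for each of the 9 receptor genes (x axis), with 1 point per library, coloured for DSLB-free, plain DSLB and protein-bearing DSLB cultures, and a black line at the mean of 30 libraries. TNFRSF1A stood highest at 82.2 TPM and LTBR and FAS lowest at 1.70 and 1.67 TPM.

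The first question was whether the receptors differed anywhere among the 10 conditions. In an edgeR test of all conditions at once, 8 of 9 receptors passed an adjusted p of 0.05, compared with 41% of all 18424 genes tested. TNFRSF21, TNFRSF10B and TNFRSF14 had the smallest values, with edgeR adjusted p = 3.80e-06, 4.18e-06 and 7.77e-06. TNFRSF12A followed with 0.00309, TNFRSF10D with 0.00450, TNFRSF1A with 0.0152, LTBR with 0.0209 and FAS with 0.0309 (edgeR adjusted p). TNFRSF10A did not pass, with an edgeR adjusted p of 0.205.

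Protein-bearing DSLBs were then compared with plain DSLBs, which asks what the proteins on the droplets add. TNFRSF14, TNFRSF10B and TNFRSF21 rose in all 8 comparisons, no receptor fell in any, and TNFRSF12A and TNFRSF10A passed in none. Of all genes tested 4.62% rose in all 8. With PD-1 alone 5 of 9 receptors passed, beside 22% of all genes in either direction and 11.3% higher. With PD-1/CD2 4 passed (29.6% of all genes, 14.1% higher), with PD-1/CD27 6 (23.8%, 12.4% higher) and with PD-1/CD40L 6 (25.5%, 13.2% higher). With PD-1/CTLA4 5 passed (34.2%, 17% higher), with PD-1/ICOS 3 (19.6%, 9.81% higher), with PD-1/LAG3 5 (30.3%, 16.2% higher) and with PD-1/TIGIT 3 (22.5%, 10.9% higher). All of the receptor calls were in the higher direction. The median log2 fold change of the 9 receptors lay between 0.19 and 0.35, beside medians over all genes of 0.00 to 0.03. The 8 comparisons share the 3 plain DSLB libraries and are therefore not independent of each other.

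The largest single change among the 9 receptors against plain DSLBs was that of TNFRSF14 with PD-1/CTLA4 (gene ENSG00000157873, chr1:2555639-2565382 on the plus strand, GRCh38). TNFRSF14 and TNFRSF21 were among the receptors called in all 8 comparisons, though not the only ones. The 250 bases before their RefSeq transcription starts (GRCh38.p14) are shown, and other start regions were left out. TNFRSF14 is shown from chr1:2556121-2556370 on the plus strand, which lies inside the GENCODE gene because that annotation starts further upstream. TNFRSF21 is shown from chr6:47309906-47310155 on the minus strand. Capitals mark a GC box, GGGCGG or its reverse complement.
TNFRSF14: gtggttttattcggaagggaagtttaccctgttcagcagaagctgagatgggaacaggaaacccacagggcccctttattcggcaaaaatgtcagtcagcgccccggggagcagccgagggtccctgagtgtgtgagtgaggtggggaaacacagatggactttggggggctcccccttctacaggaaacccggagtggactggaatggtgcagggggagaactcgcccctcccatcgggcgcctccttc
TNFRSF21: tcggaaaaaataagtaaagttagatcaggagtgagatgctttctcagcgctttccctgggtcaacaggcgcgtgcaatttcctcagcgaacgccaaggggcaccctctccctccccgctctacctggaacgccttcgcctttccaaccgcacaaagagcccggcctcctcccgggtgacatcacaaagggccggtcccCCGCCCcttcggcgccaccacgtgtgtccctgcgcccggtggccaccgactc
Windows from 250 bases before to 50 after each start were searched on both strands for the GC box GGGCGG, an AP-1 motif TGANTCA and an NF-kB motif (GGG, any 2 bases, then TTTCC). The TNFRSF14 window held none of the 3, and the TNFRSF21 window held 1 GC box, beginning 52 bases before the start. Of 35116 RefSeq promoter windows of this length 45% held the GC box, 7.71% the AP-1 motif and 1.91% the NF-kB motif, and such matches only describe the letters in the window.

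TNFRSF14 lay at 8.24, 8.35 and 7.97 CPM (counts per 1000000, libraries scaled by the TMM method) in the plain DSLB libraries and at 8.78, 10.7 and 6.63 CPM in the DSLB-free libraries. With PD-1 alone it lay at 13.4, 12.8 and 13.2 CPM, and the 24 protein-bearing libraries ran from 10.4 to 16.1 CPM. All 24 were above every plain DSLB library, a pattern whose share over all genes was not counted. The lowest of the 24, PD-1/TIGIT replicate 1, was just below the highest DSLB-free library. The log2 fold change against plain DSLBs was largest with PD-1/CTLA4 (0.87 ± 0.13 SE, 1.83-fold, edgeR adjusted p = 6.68e-06) and smallest with PD-1/TIGIT (0.54 ± 0.13 SE, 1.46-fold, edgeR adjusted p = 0.00262). Against DSLB-free tumoroids TNFRSF14 rose in 8 of 8 comparisons by 0.45 to 0.78. These values were 0.64 to 0.97 without 3 libraries that stood apart, DSLB-free replicate 2, the highest of its condition, among them. The call with PD-1/TIGIT in that family was lost without DSLB-free replicate 3 (0.29, edgeR adjusted p = 0.0774) or without PD-1/TIGIT replicate 2 (0.36, edgeR adjusted p = 0.0636). An antisense gene that overlaps it, TNFRSF14-AS1, reached at most 0.345 CPM.

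Among the TRAIL receptors, TNFRSF10B (ENSG00000120889, chr8:23020133-23069031, minus strand) rose in every comparison with either control. The plain DSLB libraries gave 69.7, 69.4 and 69.8 CPM and the DSLB-free libraries 68.7, 61.7 and 65.0 CPM. PD-1 alone gave 88.4, 90.7 and 88.9 CPM, and the 24 protein-bearing libraries ran from 82.2 to 107 CPM. In CPM the 6 control libraries and the 24 protein-bearing libraries did not overlap, a pattern that 4.43% of all genes tested showed in the higher direction. In TPM they did overlap, with 36.4 TPM in PD-1/CD2 replicate 2 and 37.8 TPM in DSLB-free replicate 1. Log2 fold changes against plain DSLBs lay between 0.35 and 0.47 (1.27- to 1.38-fold), from 0.35 ± 0.08 SE with PD-1/TIGIT (edgeR adjusted p = 0.00168) to 0.47 ± 0.08 SE with PD-1/CD40L (edgeR adjusted p = 5.14e-05). Against DSLB-free tumoroids they lay between 0.44 and 0.56. No call of TNFRSF10B was lost when any single library was left out, in 48 fits against each control.

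TNFRSF10A (ENSG00000104689, chr8:23190452-23225102, minus strand), which binds the same ligand and lies in the same gene cluster, passed in no comparison with either control. Plain DSLB libraries lay at 6.36, 6.61 and 5.99 CPM and DSLB-free libraries at 6.65, 7.24 and 7.25 CPM, within the 5.27 to 8.27 CPM of the protein-bearing libraries. The log2 fold changes against plain DSLBs ran from -0.05 to 0.28, with 95% intervals that reached from -0.27 to 0.50, and the value nearest to a call was PD-1/ICOS (0.28 ± 0.11 SE, edgeR adjusted p = 0.0664). Whether TNFRSF10A differed in its response from TNFRSF10B was not tested.

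The decoy receptor TNFRSF10D (ENSG00000173530, chr8:23135588-23164027, minus strand) binds TRAIL without a complete death domain. It lay at 13.4, 15.7 and 15.2 CPM with plain DSLBs, 12.5, 13.6 and 13.7 CPM without DSLBs and 18.6, 18.4 and 17.7 CPM with PD-1. The protein-bearing libraries ran from 14.8 to 19.7 CPM and so overlapped the plain DSLB libraries. TNFRSF10D rose against DSLB-free tumoroids in 8 of 8 comparisons by 0.29 to 0.46, and against plain DSLBs in 4 of 8, with PD-1 (0.30 ± 0.09 SE, edgeR adjusted p = 0.0210), PD-1/CD27 (0.27, 0.0415), PD-1/CD40L (0.27, 0.0390) and PD-1/LAG3 (0.25, 0.0468). These 4 calls were kept in 8 of 24 fits that left out 1 library, and each was lost without plain DSLB replicate 1, with log2 fold changes of 0.18 to 0.24 in the fits without it. Against DSLB-free tumoroids 45 of 48 such fits kept the call, the exceptions being PD-1/CD2 without its replicate 2 (0.28, edgeR adjusted p = 0.0623) and PD-1/CTLA4 without its replicate 2 (0.17, 0.210) or DSLB-free replicate 1 (0.25, 0.0842).

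TNFRSF21 (ENSG00000146072, chr6:47231532-47309905, minus strand), the death receptor whose start region is shown above, gave 61.6, 56.1 and 58.8 CPM with plain DSLBs and 53.9, 52.2 and 55.1 CPM without DSLBs. PD-1 alone gave 75.4, 73.7 and 72.1 CPM, and the 24 protein-bearing libraries ran from 64.7 to 79.8 CPM. As for TNFRSF10B, no control library reached the lowest protein-bearing library in CPM, but the 2 sets overlapped in TPM. PD-1/LAG3 replicate 3 lay at 23.7 TPM, whereas plain DSLB replicate 1 reached 27.5 TPM. The log2 fold change against plain DSLBs was 0.38 ± 0.07 SE with PD-1/ICOS (1.30-fold, edgeR adjusted p = 0.000149) and 0.23 ± 0.07 SE with PD-1/LAG3 (1.17-fold, edgeR adjusted p = 0.00945), with the other 6 between them. The PD-1/LAG3 call was lost without PD-1/LAG3 replicate 1 (0.17, edgeR adjusted p = 0.0623) or plain DSLB replicate 2 (0.20, 0.0532). Against DSLB-free tumoroids the change lay between 0.36 and 0.51 and passed in 8 of 8, in each of 48 fits that left out 1 library. The mean transcript length behind its counts was 3595 bases in every library.

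TNFRSF1A (ENSG00000067182, chr12:6328757-6342114, minus strand), the main receptor for TNF, gave 91.0, 83.5 and 80.5 CPM with plain DSLBs, 81.5, 84.5 and 77.7 CPM without DSLBs and 106, 97.9 and 92.5 CPM with PD-1. The protein-bearing libraries ran from 90.0 to 111 CPM, so that 1 plain DSLB library lay within their range. It rose against DSLB-free tumoroids in 8 of 8 comparisons by 0.21 to 0.34, and against plain DSLBs with PD-1 (0.22 ± 0.08 SE, edgeR adjusted p = 0.0459), PD-1/CD40L (0.28 ± 0.08 SE, 0.0106) and PD-1/CTLA4 (0.24 ± 0.08 SE, 0.0201). The other 5 values against plain DSLBs were between 0.15 and 0.20. With a replicate block 8 of 8 passed in edgeR, with values from 0.15 to 0.27, and with the length trend removed 0 of 8 did. Of the fits that left out 1 library, 9 of 18 against plain DSLBs and 33 of 48 against DSLB-free tumoroids kept the call. Without their own replicate 1 the values against plain DSLBs came to 0.14 for PD-1 (edgeR adjusted p = 0.30), 0.20 for PD-1/CD40L (0.125) and 0.15 for PD-1/CTLA4 (0.210), and against DSLB-free tumoroids the call was lost without the condition's own replicate 1 in 7 of 8 comparisons and without DSLB-free replicate 3 in 5. Replicate 1 was the highest of its condition for TNFRSF1A in 9 of 10 conditions.

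FAS (ENSG00000026103, chr10:88953813-89029605, plus strand), the receptor for FAS ligand, lay at 1.78, 1.24 and 1.83 CPM with plain DSLBs, 1.67, 1.43 and 1.41 CPM without DSLBs and 2.47, 1.74 and 2.22 CPM with PD-1. Its highest library, at 2.73 CPM, was PD-1/LAG3 replicate 2, and PD-1/CD40L was low at 1.78, 1.67 and 1.58 CPM, inside the plain DSLB range. FAS rose against plain DSLBs with PD-1/CD27 (0.54 ± 0.18 SE, edgeR adjusted p = 0.0286) and PD-1/LAG3 (0.52 ± 0.18 SE, edgeR adjusted p = 0.0270), and against DSLB-free tumoroids with PD-1, PD-1/CD27, PD-1/CTLA4, PD-1/LAG3 and PD-1/TIGIT by 0.49 to 0.64, calls kept in 16 of 30 fits that left out 1 library. The difference of PD-1/CD40L from PD-1 alone was -0.34 with a 95% interval from -0.71 to 0.03 and did not pass (edgeR adjusted p = 0.479). Both calls against plain DSLBs were lost without plain DSLB replicate 2, the lowest library, with 0.38 for PD-1/CD27 and 0.36 for PD-1/LAG3 (edgeR adjusted p = 0.180 for each). They were kept in 5 of 12 fits that left out 1 library, the PD-1/CD27 call being lost without any 1 of that condition's own replicates. Both were also lost in DESeq2 on 6 libraries, without a filter on low counts and with the length trend removed. The annotated gene overlaps STAMBPL1 on the same strand (11.2 CPM on average) and ACTA2 on the opposite strand (0.780 CPM), and the part of their reads in the FAS counts was not tested.

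Of the receptors without a death domain, LTBR (ENSG00000111321, chr12:6375045-6391571, plus strand) lay at 1.06, 1.00 and 1.37 CPM with plain DSLBs and at 1.41, 1.45 and 1.27 CPM without DSLBs. With PD-1/CD27 it gave 2.26, 1.65 and 1.75 CPM and with PD-1/CD2 1.74, 1.67 and 2.10 CPM, whereas PD-1/TIGIT gave 1.21, 1.09 and 1.25 CPM, inside the plain DSLB range. Against plain DSLBs LTBR rose with PD-1/CD27 (0.74 ± 0.19 SE, edgeR adjusted p = 0.00483), PD-1/CD2 (0.68 ± 0.19 SE, 0.00742), PD-1/CTLA4 (0.56 ± 0.19 SE, 0.0250) and PD-1/CD40L (0.53 ± 0.19 SE, 0.0445). It passed in 0 of 8 comparisons with DSLB-free tumoroids (values from -0.22 to 0.46, with 2 of 8 at an unadjusted edgeR p under 0.05). The PD-1/CD40L value came to 0.27 without that condition's replicate 1 (edgeR adjusted p = 0.422), and the PD-1/CD27 value to 0.58 without its replicate 1 (0.0545), while the PD-1/CTLA4 call was lost without any 1 of 4 libraries, plain DSLB replicates 1 and 2 (0.51 and 0.47) among them. LTBR overlaps SCNN1A on the opposite strand, which averaged 16 CPM with plain DSLBs and 19.2 CPM with PD-1, and whether the counting used strand is not stated in the sources at hand. The part of those reads in the LTBR counts was not tested.

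TNFRSF12A (ENSG00000006327, chr16:3018445-3022383, plus strand), also called Fn14, was low in the DSLB-free cultures. The DSLB-free libraries lay at 24.7, 26.5 and 24.5 CPM and the plain DSLB libraries at 35, 32.4 and 34.7 CPM. The protein-bearing libraries ran from 26.3 to 39.9 CPM with a median of 35 CPM, around the plain DSLB values. Plain DSLBs against DSLB-free tumoroids gave 0.43 ± 0.10 SE (1.35-fold, 95% interval 0.23 to 0.63), which did not pass the adjustment over all genes in edgeR (adjusted p = 0.271). DESeq2 called it, with an adjusted p of 0.0474 on all libraries and 0.00541 on the 6 compared, as did edgeR without a filter on low counts (adjusted p = 0.000637). In edgeR 0 of 9 receptors and 0.0109% of all genes passed in this comparison, TNFRSF12A being the only receptor with an unadjusted p under 0.05. Against DSLB-free tumoroids TNFRSF12A rose in all 8 protein-bearing conditions, from 0.36 ± 0.10 SE with PD-1/LAG3 (edgeR adjusted p = 0.00786) to 0.57 ± 0.10 SE with PD-1/TIGIT (edgeR adjusted p = 9.43e-05). Against plain DSLBs its values lay between -0.08 and 0.14 and the 95% intervals between -0.28 and 0.34. Spread was widest with PD-1/CD2, at 32.3, 39.9 and 26.3 CPM, and the value of that condition against DSLB-free tumoroids, 0.39, came to 0.20 without its replicate 2 (edgeR adjusted p = 0.138). PD-1/CTLA4 without replicate 3 (0.30, 0.0519) and PD-1/LAG3 without replicate 2 (0.27, 0.0642) were the other calls lost when 1 library was left out. On log2(TPM + 1) 3 of 8 comparisons with DSLB-free tumoroids passed in limma (values from 0.12 to 0.35), and 5 of 8 passed in edgeR with the length trend removed.

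**Figure D2:**
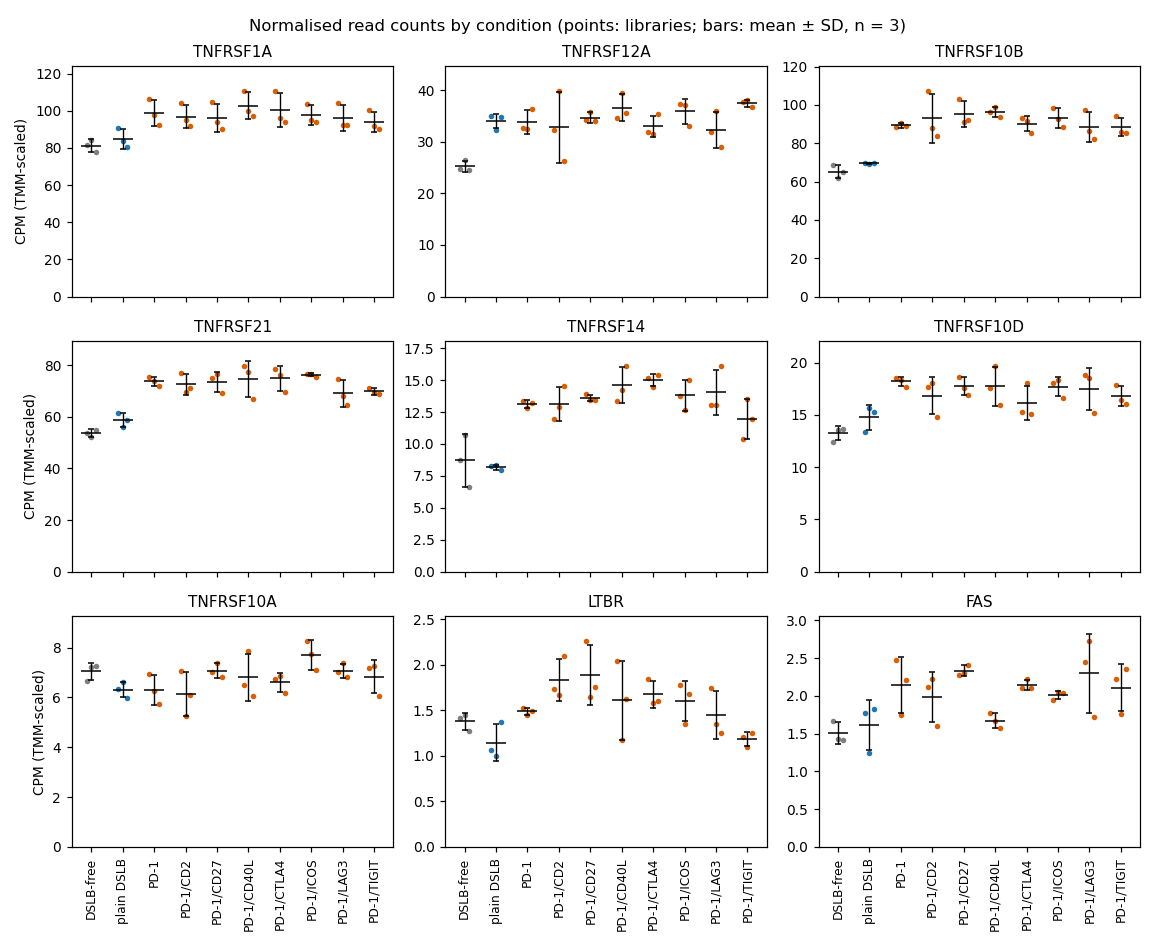
CPM on TMM-scaled libraries (y axis, from 0) for each receptor gene in the 10 conditions (x axis), with points for the 3 libraries of each and bars for the mean ± SD. TNFRSF10B and TNFRSF21 stood higher in all 24 protein-bearing libraries than in the 6 controls, TNFRSF12A was low in the DSLB-free libraries at 24.5 to 26.5 CPM, and TNFRSF10A overlapped throughout.

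Compared with DSLB-free tumoroids as a whole, TNFRSF10B, TNFRSF10D, TNFRSF1A, TNFRSF12A, TNFRSF14 and TNFRSF21 rose in all 8 protein-bearing conditions, FAS in 5, and TNFRSF10A and LTBR in none. The share of all genes that rose in all 8 of these comparisons was not counted, so the receptor count cannot be set against it. By condition, 7 of 9 receptors passed with PD-1 (26.4% of all genes called, 14% higher), PD-1/CD27 (27.4%, 14.7% higher), PD-1/CTLA4 (32.7%, 16.6% higher), PD-1/LAG3 (28.7%, 15.7% higher) and PD-1/TIGIT (25.7%, 13.3% higher). The count was 6 of 9 with PD-1/CD2 (31.1%, 15.4% higher), PD-1/CD40L (26.9%, 14.6% higher) and PD-1/ICOS (20.7%, 11% higher). Again every receptor call was in the higher direction. With edgeR on only the 6 libraries compared, TNFRSF10B and TNFRSF21 passed in 8 each, TNFRSF14 in 7, TNFRSF12A and TNFRSF10D in 6 each, TNFRSF1A in 4 and FAS in 1. The 8 comparisons share the 3 DSLB-free libraries. The median over the 9 receptors lay between 0.36 and 0.46.

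**Figure D3:**
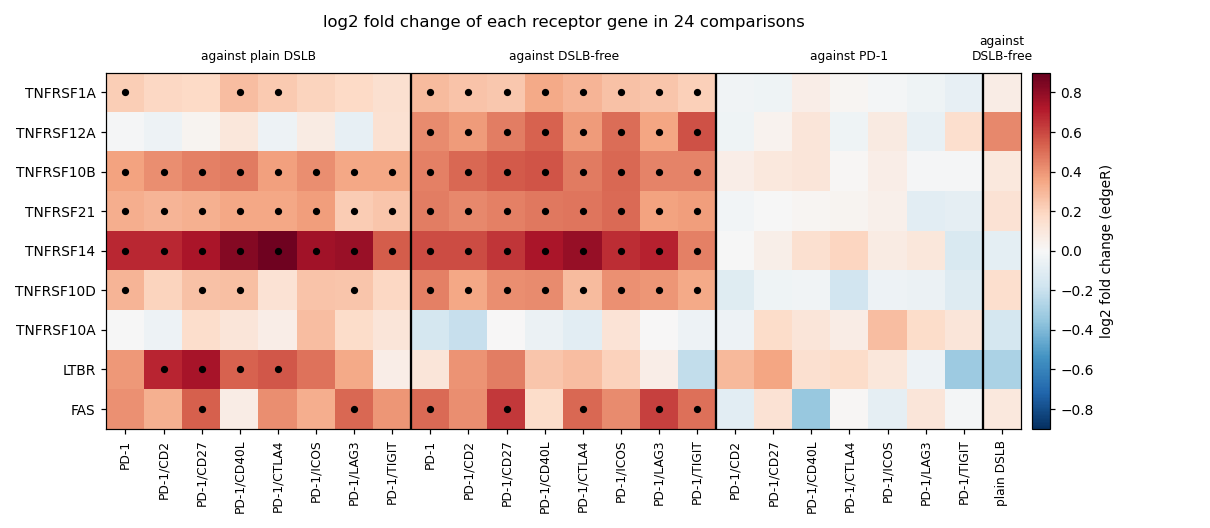
Log2 fold changes (colour scale, edgeR) of the 9 receptor genes (rows) in 24 comparisons (columns, named by the condition tested, grouped by the reference), with a black dot where the adjusted p was under 0.05. Dots fill the rows of TNFRSF14, TNFRSF10B and TNFRSF21 in the 16 comparisons of protein-bearing conditions with either control, and no dot stands in the 7 comparisons with PD-1 or in that of plain DSLBs with DSLB-free tumoroids.

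What a second protein adds to PD-1 was asked by comparing the 7 dual conditions with PD-1 alone. No receptor passed in any of them. All genes called came to 1.23% with PD-1/CD2, 2.29% with PD-1/CD27, 0.0109% with PD-1/CD40L, 0.0434% with PD-1/CTLA4, and 0% with PD-1/ICOS, PD-1/LAG3 and PD-1/TIGIT. Of the 63 receptor tests in edgeR 1 had an unadjusted p under 0.05, TNFRSF10A with PD-1/ICOS (0.28 ± 0.11 SE, edgeR adjusted p = 0.392), and DESeq2 and limma-voom made 0 calls as well. For TNFRSF10B the 95% intervals of the 7 differences reached from -0.17 to 0.26, for TNFRSF21 from -0.23 to 0.18, for TNFRSF1A from -0.23 to 0.22 and for TNFRSF12A from -0.27 to 0.35. They reached from -0.38 to 0.44 for TNFRSF14, from -0.36 to 0.16 for TNFRSF10D and from -0.27 to 0.50 for TNFRSF10A. For the thinly covered FAS and LTBR they reached from -0.71 to 0.48 and from -0.71 to 0.73. TNFRSF10D was lower than with PD-1 alone in all 7 (values from -0.17 to -0.03), none of which passed.

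Over all 28 pairs of protein-bearing conditions 0 of 252 receptor tests passed in edgeR (15 at an unadjusted p under 0.05, 6 of them for LTBR), where 0% to 7.41% of all genes did, for example 3.13% between PD-1/ICOS and PD-1/CD2 and 1.04% between PD-1/LAG3 and PD-1/CD2. The order of the conditions within the protein-bearing cultures, such as TNFRSF14 at 15 ± 0.460 CPM with PD-1/CTLA4 and 11.9 ± 1.58 CPM with PD-1/TIGIT (SD, n = 3), is therefore an order of means in which no pair passed a test. The pair nearest to a call was LTBR in PD-1/TIGIT and PD-1/CD27 (smallest edgeR adjusted p = 0.0635). Across all 45 pairs of conditions TNFRSF10B, TNFRSF14 and TNFRSF21 passed in 16 each, TNFRSF10D in 12, TNFRSF1A in 11, TNFRSF12A in 8, FAS in 7, LTBR in 4 and TNFRSF10A in 0, every time between a control and a protein-bearing condition.

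TPM scaling gave smaller values for most receptors. On log2(TPM + 1), on which fold changes of low genes are understated, the median gene lay between -0.11 and -0.04 against plain DSLBs and between -0.13 and -0.06 against DSLB-free tumoroids, and higher calls made up 20.3% to 38.2% of all calls against plain DSLBs in limma, compared with 47.8% to 53.4% in edgeR on TMM-scaled counts. Against DSLB-free tumoroids these shares were 16.4% to 29.3% and 49.6% to 54.8%. Of 18424 genes, limma on the TPM scale called 926 to 1147 higher and 2351 to 5424 lower per comparison with DSLB-free tumoroids. With plain DSLBs as the control it called 850 to 1382 higher and 1788 to 5109 lower. On this scale limma called TNFRSF14 in 8 of 8 comparisons with DSLB-free tumoroids, TNFRSF10B and TNFRSF21 in 6 each, TNFRSF12A in 3, TNFRSF1A and FAS in 1 each and TNFRSF10D in 0, all with positive values, and LTBR as lower with PD-1/TIGIT (-0.41). TNFRSF14 passed in 8 of 8 comparisons with plain DSLBs on this scale too (0.38 to 0.74). TNFRSF10B passed in 4 of 8 (0.19 to 0.38) and TNFRSF21 in 1 of 8 (0.06 to 0.31), and TNFRSF10D and TNFRSF1A in 0. Taken relative to the median gene, TNFRSF10B lay 0.28 to 0.42, TNFRSF21 0.16 to 0.35, TNFRSF1A 0.11 to 0.31 and TNFRSF10D 0.06 to 0.24 higher than with plain DSLBs. On the unadjusted TPM scale TNFRSF10D with PD-1/CTLA4 was -0.04 and the signs of TNFRSF12A, TNFRSF10A and LTBR were mixed.

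Correlations over the 30 libraries were taken without removing the condition means, so receptors that rose in the same conditions correlate by that alone. Pearson's r of log2 CPM was 0.92 for TNFRSF10B and TNFRSF21, 0.86 for TNFRSF1A and TNFRSF21 and 0.81 for TNFRSF10B and TNFRSF10D, and -0.10 for TNFRSF12A and LTBR. These are descriptions over libraries that share conditions, depth and scaling. Among 13839 genes with a mean of at least 50 counts, the patterns most like that of TNFRSF14 were those of MFNG (0.96), ANGPTL4 (0.95) and ODF3B (0.95). For TNFRSF10B they were ERO1A (0.97), SLFN5 (0.96) and SCD (0.95), and for TNFRSF21 TIMP2 (0.95), STEAP3 (0.94) and SCARB1 (0.94).

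Among the ligands of the family, 9 of 18 listed genes were expressed enough to be tested. Of these 9, 3 rose and 0 fell in at least 1 comparison with plain DSLBs, beside 26.5% and 25% of all genes. TNF, LTA, FASLG and TNFSF14, the ligands of TNFRSF1A, FAS and TNFRSF14, were below the filter, with at most 4 counts in any library. TNFSF10, which encodes TRAIL, was present at 3.10 TPM and passed in 0 of 8 comparisons with plain DSLBs (-0.18 to 0.24). CD70 (23 TPM) and TNFSF9 (2.66 TPM) rose in 6 of 8, by up to 0.36 and 0.63, and TNFSF12, which encodes TWEAK, the ligand of TNFRSF12A (17.6 TPM), in 4 of 8, by up to 0.52. On the TPM scale the signs of CD70 and TNFSF12 were mixed over the 8 comparisons. No tested ligand fell against plain DSLBs in edgeR, and against PD-1 alone none passed.

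Other receptors of the superfamily moved in both directions: of 14 tested, 4 rose and 5 fell in at least 1 comparison with plain DSLBs. Of all 18424 genes 26.5% rose and 25% fell in at least 1 of these 8 comparisons, while 4.62% rose and 4.88% fell in all 8. TNFRSF18, known as GITR, rose in 8 of 8 (0.68 to 1.29, 14.3 TPM), as did CD40 (0.20 to 0.35, 22.6 TPM), the receptor of the CD40L carried by 1 set of DSLBs, although CD40 passed in 0 of 8 on the TPM scale, with values from -0.03 to 0.18. TNFRSF10C, a further decoy for TRAIL, rose in 7 of 8 (0.66 to 0.95, 1.37 TPM). TNFRSF1B, the second receptor for TNF, fell in 8 of 8 (-0.48 to -0.33, 9.60 TPM), whereas TNFRSF1A rose in 3 and fell in none. TNFRSF19 fell in 8 of 8 (-1.10 to -0.87), TNFRSF11B, the soluble receptor osteoprotegerin, which can also bind TRAIL, in 7 (-1.89 to -0.71, 0.41 TPM), and NGFR in 7 (-0.89 to -0.28). Against PD-1 alone TNFRSF25 was the one gene of this list that passed, higher in 2 of 7.

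All 12 listed genes of the death-inducing complex were tested. Of these, 3 rose and 4 fell in at least 1 comparison with plain DSLBs, beside 26.5% and 25% of all genes. CASP8, the initiator caspase, rose in 8 of 8 comparisons with plain DSLBs by 0.17 to 0.31 (32.5 TPM), TRADD, an adaptor of TNFRSF1A, in 6 by up to 0.72, and CASP10 in 3. On the TPM scale CASP8 lay between -0.00 and 0.13 and passed in 0 of 8. CFLAR, which encodes the caspase-8 inhibitor FLIP, fell in 4 of 8 (-0.47 to -0.01), RIPK1 and DAXX in 5 each and CASP6 in 3. The other 5, among them FADD (42.7 TPM) and BID (54.7 TPM), passed in 0 of 8. Against PD-1 alone CFLAR was higher in 1 of 7, and no other gene of this list passed. The list's median against plain DSLBs lay between -0.12 and 0.05.

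In the TRAF and survival branch 5 of 20 tested genes rose and 8 fell in at least 1 comparison with plain DSLBs, beside the 26.5% and 25% of all genes. TRAF1, a target and adaptor of NF-kB signalling, rose in 6 (up to 0.70), and RBCK1, a subunit of the linear ubiquitin ligase, in 8 (0.26 to 0.36). BIRC3, an inhibitor of apoptosis that binds TRAF proteins, fell in 8 (-0.44 to -0.23), OTULIN, which removes linear ubiquitin, in 8 (-0.48 to -0.28) and MAP3K14, the kinase of the non-canonical NF-kB path used by LTBR, TNFRSF12A and CD40, in 6 (-0.38 to -0.15). The 8 genes that fell were negative in all 8 comparisons on the TPM scale. There the median gene also lay below 0 (-0.11 to -0.04), and genes of this list that passed in 0 of 8 were negative throughout as well. Relative to the median gene TRAF3, called lower in 4, reached 0.03. TRAF1, TRAF5, RNF31 and SHARPIN had mixed signs on the TPM scale. Of the enzymes that shed TNF receptors, ADAM10 (147 TPM) and ADAM17 (36.1 TPM) passed in 0 of 8, while RHBDF2, a cofactor of ADAM17, rose in 3 and TIMP3, an inhibitor of such enzymes, fell in 1. So 1 of these 4 tested genes rose and 1 fell in at least 1 comparison, near the 26.5% and 25% of all genes. RHBDF2 had mixed signs on the TPM scale.

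**Figure D4:**
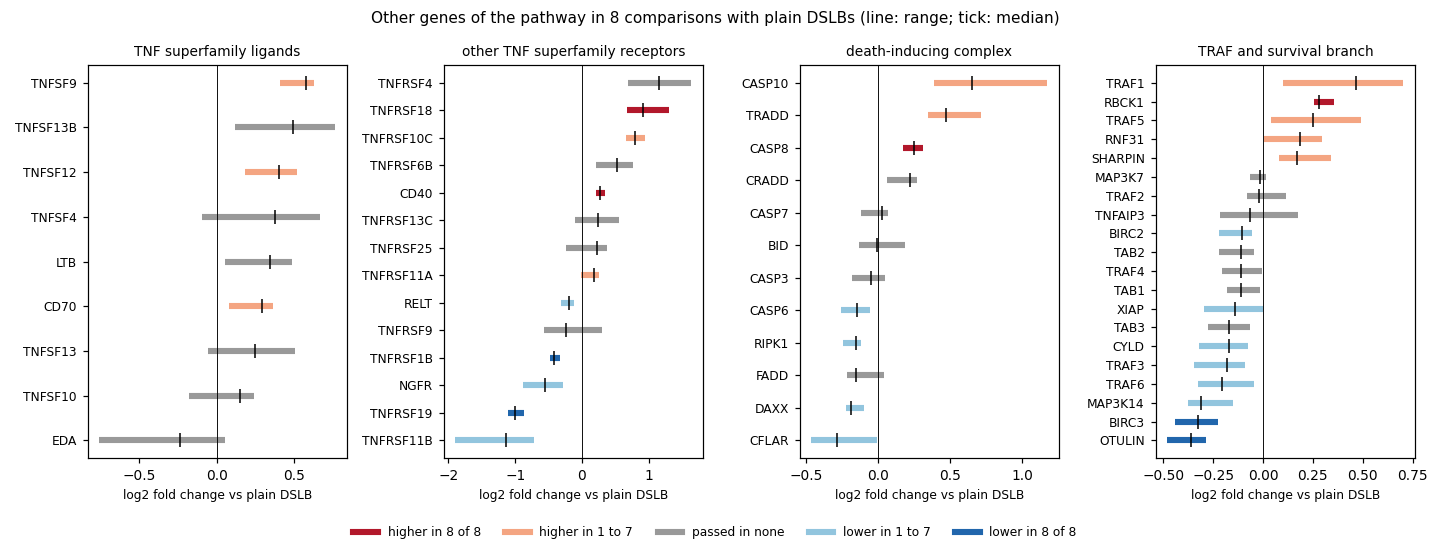
Log2 fold change against plain DSLBs (x axis) for the tested genes of 4 lists, ligands, other receptors, the death-inducing complex and the TRAF and survival branch (y axes). Each line spans the lowest to the highest of 8 comparisons with a tick at the median, coloured by how many of the 8 passed in edgeR; TNFRSF18, CD40, CASP8 and RBCK1 were higher in 8 of 8, and TNFRSF1B, TNFRSF19, BIRC3 and OTULIN lower in 8 of 8.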

How the data were processed

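RNA-seq was analysed from 30 PANC-1 cultures, grouped by the condition and replicate number in the sample labels. The authors trimmed single-end reads, mapped them with STAR onto hg38 and quantified genes with RSEM; Trim Galore 0.3.3, SAMtools 1.3.1 and FastQC 0.11.2 also appear in the submitters' processing notes, and neither annotation release nor strand setting is stated in the sources at hand. Each gene's deposited expected count is an RSEM estimate without normalization. The deposited TPM values were scaled by the authors for length and library. The authors' mean transcript length per gene, another RSEM output, was read as it stood.

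Expected counts were rounded, filtered with filterByExpr by group (18424 genes) and scaled by TMM. One edgeR 4.0.16 quasi-likelihood model (robust) held all 30 libraries with a mean per condition, and p-values were adjusted by Benjamini-Hochberg over all genes kept, with a threshold of 0.05. Standard errors are of the log2 fold change, and intervals are 95%. Depth was 21.9 M to 60.5 M counts per library, and the biological coefficient of variation 0.0942. The study compared conditions pairwise in DESeq2, which was run here (1.42.0) as an alternative, on all libraries and on the 6 compared. The other alternatives were RLE factors, limma 3.58.1 (voom, and log2(TPM + 1)), edgeR on 6 libraries, no filter (39960 genes tested), only genes averaging 100 counts or more (12668), a removed length trend (spline, 5 degrees of freedom), a replicate block, 3 libraries that stood apart left out together and each library in turn. R 4.3.3, Python 3.11.15, pandas 2.3.3 and matplotlib 3.10.9 were used, and the steps were tested on simulated data.

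Identifiers were matched to GENCODE v44 on GRCh38 (56321 of 60483 records, all 9 receptors), and promoter sequences are RefSeq's. All 9 receptors were named. Of the other lists, members called in a comparison and the 3 most abundant ones could be named, and 4 ligands below the filter were named after their values were seen. One of the lists is not reported here. The receptors, lists and libraries left out were chosen with earlier results of these data known. P-values measure the spread between cultures of 1 line.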

Additional observations from a re-analysis of the deposited data

How the results depend on the processing

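Receptor calls against plain DSLBs were 5 with PD-1, 4 with PD-1/CD2, 6 with PD-1/CD27, 6 with PD-1/CD40L, 5 with PD-1/CTLA4, 3 with PD-1/ICOS, 5 with PD-1/LAG3 and 3 with PD-1/TIGIT. RLE factors and limma-voom kept each within 1.5 times, and no log2 fold change of a call turned its sign under any alternative run. With limma on log2(TPM + 1) the calls came to 1 with PD-1, PD-1/CTLA4, PD-1/LAG3 and PD-1/TIGIT and 2 with PD-1/CD2 and PD-1/CD40L, the 45 pairs gave 41 calls instead of 90, and 4 instead of 8 receptors differed among the 10 conditions (5 with the length trend removed). With that trend removed TNFRSF1A passed against plain DSLBs in 0 of 8 and TNFRSF10D in 8 of 8.

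PD-1/LAG3 gave 3 calls in edgeR on 6 libraries, in DESeq2 on 6 libraries, without a filter and with a mean of at least 100 counts. PD-1/ICOS gave 6 in edgeR on 6 libraries and 5 in DESeq2 on 6, and PD-1/TIGIT 6 in edgeR on 6. Plain DSLB against DSLB-free gave 1 call, TNFRSF12A, in both DESeq2 fits and without a filter, and 0 elsewhere. Leaving out 1 library gave 3 to 5 calls with PD-1, PD-1/CD27, PD-1/CD40L and PD-1/CTLA4, 4 to 5 with PD-1/CD2, 3 to 4 with PD-1/ICOS and 2 to 5 with PD-1/LAG3, and 3 with PD-1/TIGIT throughout. The share of all genes called in each of these fits was not set beside the receptor counts, and the cause of the shifts was not tested.

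Over all genes, same-numbered libraries did not deviate together: 17 of 135 pairs had a correlation over 0.1 (median 0.00227). That check gave no sign that the numbers pair the samples, although the study describes its replicates as parallel sets of all conditions. For single receptors, replicate 1 was the highest in 9 of 10 conditions for TNFRSF1A, 8 for TNFRSF21 and 7 for TNFRSF10B. No replicate number was highest in more than 6 for any other receptor. Whether the numbers mark a batch was not tested. With a replicate block the calls were 7 with PD-1/ICOS, 100 instead of 90 over all 45 pairs, and TNFRSF1A passed in 8 of 8 against plain DSLBs. Depth limits FAS and LTBR most, at 34 to 164 and 31 to 109 counts.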
